A study of Mus musculus with 9 samples.

Results

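The ADAM, ADAMTS, MMP and TIMP genes are described here in NMuMG cells, an immortalized line of mouse mammary gland epithelial cells, that overexpressed the long noncoding RNA EPR (gene BC030870) or a mutant of it. A gene was a member when its symbol began with Adam, Adamts, Adamtsl, Mmp or Timp followed directly by a number. This rule found 84 genes among 52459 symbols of the mouse annotation: 33 ADAM, 19 ADAMTS, 5 ADAMTSL, 23 MMP and 4 TIMP genes. The 9 RNA-seq libraries fell into 3 conditions of 3 libraries each. Mock cells carried the empty vector, EPR cells the full EPR sequence, and EPRSTOPE cells an EPR sequence in which a codon early in the small open reading frame was turned into a stop, so that the RNA is made but not its peptide. All cells, mock included, had been stably transfected with a vector of the pBICEP type and selected with G418, and each condition is a pool of transfectants rather than a clone. The libraries are described as biological triplicates, but the sources used here do not say whether those of a condition came from separate pools, so the p-values measure only the spread between these libraries.

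Matrix metalloproteinases (MMPs) are zinc-dependent enzymes, secreted or held in the plasma membrane, that cleave collagens and other proteins of the extracellular matrix, and most are made as latent precursors. ADAMs are membrane proteins, many of which cut the extracellular parts of other membrane proteins (shedding), while ADAMTS enzymes are secreted and cut proteoglycans, procollagens and microfibril proteins, and the ADAMTS-like (ADAMTSL) proteins lack the protease domain. The tissue inhibitors of metalloproteinases (TIMPs) block the active site of these enzymes, and in the mammary gland the balance of MMPs and TIMPs is known for its part in branching and involution.

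Estimated read counts per library totalled 5972457 to 11876435, and values are given as CPM, counts scaled to a common library size after normalisation between libraries, or as TPM, which is also scaled to transcript length, where levels of different genes are compared. BC030870 had 0 to 0.163 CPM in the mock libraries, 23.7 to 27.0 CPM with EPR and 3.8 to 4.74 CPM with EPRSTOPE. Of the markers of the labelled cell type, the epithelial keratins Krt8 and Krt18 were abundant in every condition and rose in both overexpressing ones (Krt8 from 2108 ± 121 CPM to 5263 ± 316 and 5977 ± 50.7). In contrast, 6 of 11 epithelial markers, Epcam and Krt5 among them, had no count in any mock library. Of these, Cldn3, Cldn4, Cldn7 and Esrp1 also had no count in EPRSTOPE. Markers that reached 1 CPM in a library numbered 4 of 11 in mock and 5 of 11 in each overexpressing condition. Krt14 was called lower in EPR, from 0.896 ± 0.223 CPM in mock to 0, and had 2.32 ± 0.919 CPM in EPRSTOPE. The epithelial cadherin Cdh1 had 0.843 ± 0.464 CPM (SD, n = 3) in mock cells, 556 ± 13.7 with EPR and 403 ± 22.8 with EPRSTOPE. The summed level of 8 immune markers was 2.93 to 5.75 CPM in mock cells, 13.4 to 18.2 with EPR and 12.2 to 20.8 with EPRSTOPE, with Adgre1 at 0 throughout. S100a8 made up most of it in the overexpressing conditions but not in mock, with 0.51 ± 0.21, 11.1 ± 1.36 and 13.3 ± 4.37 CPM. Mock libraries held 4035 to 4201 CPM of 12 mesenchymal markers in sum, EPR libraries 2214 to 2446 and EPRSTOPE libraries 3960 to 4299. Vim, Fn1, Cdh2 and Zeb2 were called lower in EPR, and Cdh2 also in EPRSTOPE (log2 fold change -1.06 against mock). Pdgfra, on the same list, was without counts in mock and was called higher in both overexpressing conditions, with means of 1.19 and 1.3 CPM. Neither these markers nor BC030870 were tested for a part in the results on proteases. In bulk RNA, a change in the share of cells that express a gene and a change in the RNA per cell cannot be told apart.

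Of the 84 genes, 38 reached 1 CPM in at least 3 libraries and were tested: 12 MMP, 3 TIMP, 11 ADAM, 9 ADAMTS and 3 ADAMTSL genes. Among the other 46, 20 had no count in any library, 11 had fewer than 10 counts over all libraries, and none exceeded 1.16 CPM in a library. A gene was called changed at an adjusted p under 0.01 with a change of more than 0.5 on the log2 scale, up or down (edgeR, p adjusted over 15370 genes). Of the tested members, 10 were under 1 CPM in every library of at least 1 condition, and those that passed the filter only through a condition where they were high had to differ, so the counts of called members describe them and carry no test. The libraries of the conditions compared did not overlap for 30 of the 38 tested members in EPR against mock (57.8% of all genes), 26 in EPRSTOPE against mock (56.4%) and 22 in EPR against EPRSTOPE (43.0%). All 3 comparisons share libraries, and the mock libraries serve both overexpressing conditions.

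In EPR against mock, 16 members rose, 6 fell and 16 were not called. Over all genes tested, 15.2% rose and 12.9% fell, 28.1% in all. The largest increases were those of Adamts15, Adamts9 and Mmp3, and the largest decreases those of Adam12, Adamts1 and Adam23. The median log2 fold change was 0.54 over the 38 tested members and -0.01 over all genes, and the median size, whatever the sign, was 1.07 against 0.41.

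In EPRSTOPE against mock, 17 members rose, 9 fell and 12 were not called, where 15.6% of all genes rose and 12.4% fell, 28.0% in all. Mmp3, Mmp13 and Mmp10 had the largest increases. Adamts10, Adamts14 and Adamts3 were left without a count, and Adam23 with 6. The median log2 fold change was 0.63 over the tested members and -0.04 over all genes, with median sizes of 1.21 and 0.42.

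In EPR against EPRSTOPE, 8 members were higher in EPR, 10 were lower and 20 were not called, against 6.86% higher and 6.35% lower over all genes, 13.2% in all. Members higher in EPR were mostly ADAMTS genes, 5 of 9 tested, and of the 10 members lower in EPR, 5 were MMPs, of 12 tested. The median log2 fold change was -0.08 over the members and 0.01 over all genes, and the median size was 0.92 against 0.28. With the genes that had no count in EPRSTOPE at the lower bound of their change, and 1 without a bound left out, the members' medians became -0.11 and 0.87.

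**Figure D1:**
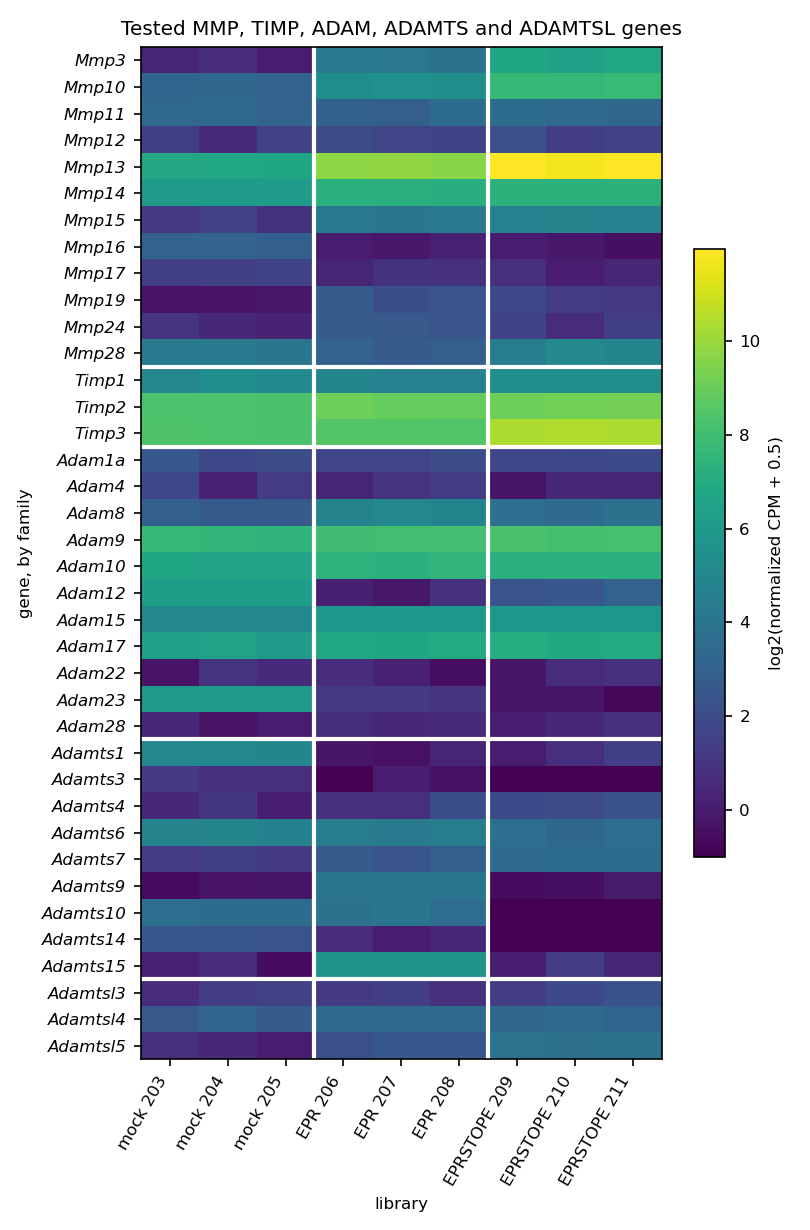
Heat map of the 38 tested genes (rows, by family) in the 9 libraries (columns, by condition), coloured by log2(CPM + 0.5). Mmp13 is brightest in the EPRSTOPE libraries at 3438 to 3992 CPM, and the rows of Adamts1, Adam12 and Adam23 darken from mock to both overexpressing conditions.

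**Figure D2:**
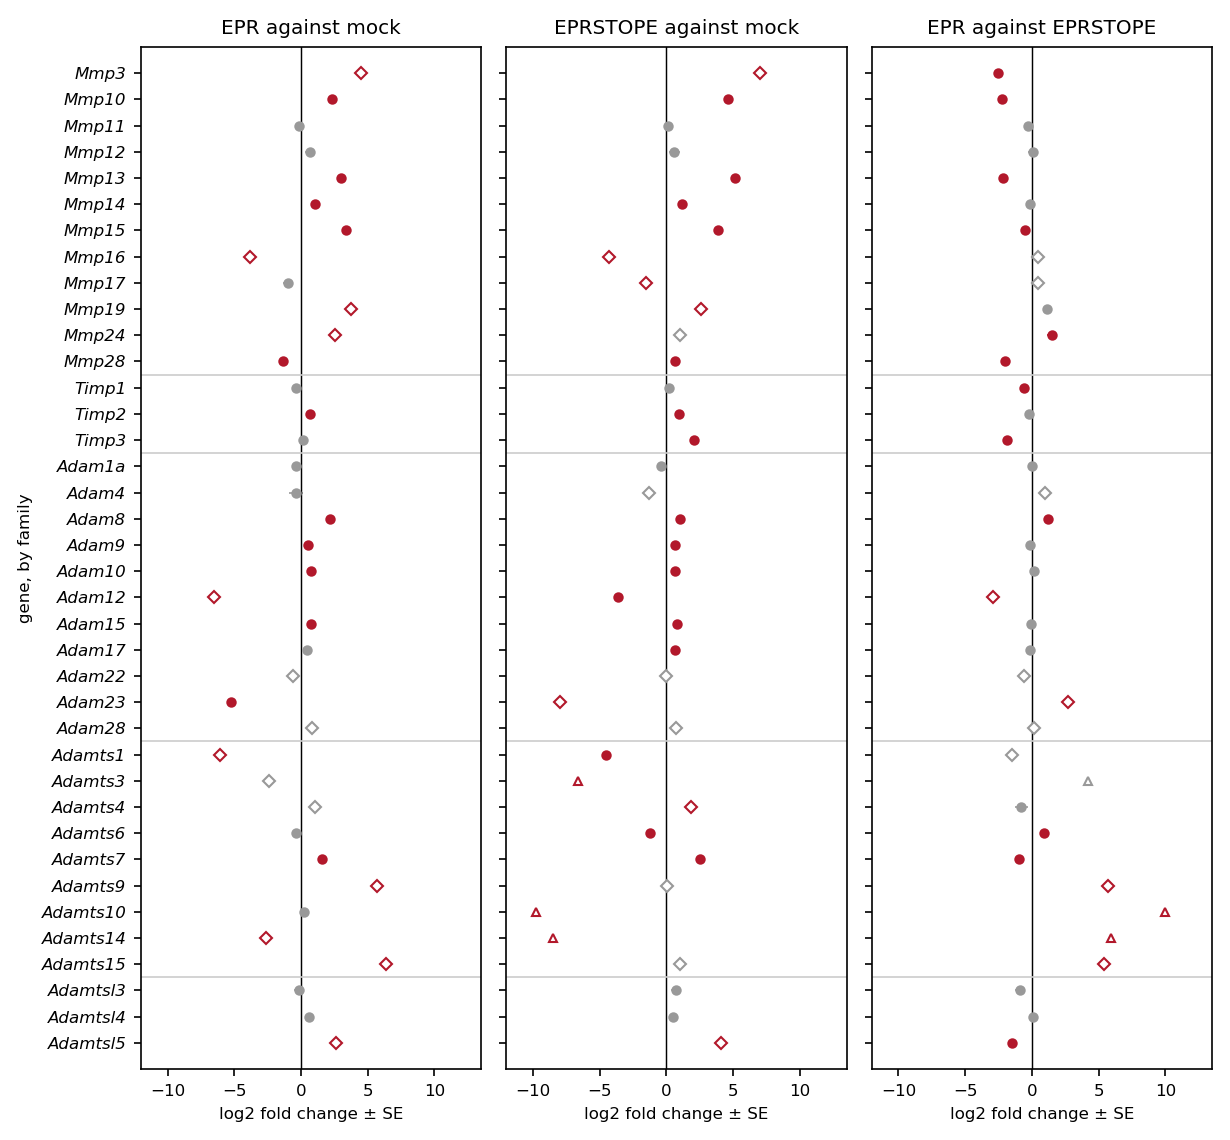
Log2 fold change of each tested gene in the 3 comparisons, with called genes in red and others in grey. Filled circles carry the standard error of the fit, which is often smaller than the symbol; open diamonds mark genes with under 30 counts in one of the conditions compared and open triangles genes with no count in one, whose fitted value depends on the prior count and is no measurement of size.

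Mmp13, a collagenase that cleaves fibrillar collagens, had the highest level of all members in EPRSTOPE and, together with Timp2, in EPR. Its CPM were 112, 109 and 99.5 in the mock libraries, 857, 888 and 819.9 in EPR, and 3982, 3438 and 3992 in EPRSTOPE. The 3 conditions did not overlap, in the order mock, EPR, EPRSTOPE. Mmp13 rose 8.01-fold in EPR (log2 fold change 3.0 ± 0.07 (SE), adjusted p = 2.4e-11) and 35.6-fold in EPRSTOPE (5.16 ± 0.08, adjusted p = 9.8e-13), and was 4.45-fold lower in EPR than in EPRSTOPE (-2.15 ± 0.07, adjusted p = 1.5e-09). By TPM, it ranked 3181st to 3794th of the 52459 symbols in mock, 320th to 363rd in EPR and 51st to 72nd in EPRSTOPE libraries.

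The stromelysins Mmp10 and Mmp3, which cleave proteoglycans, laminin and fibronectin and can activate latent collagenases, followed the same order of conditions. Mmp10 had 8.85, 9.39 and 7.81 CPM in mock, 43.2, 47.1 and 42.7 in EPR, and 207, 197 and 223 in EPRSTOPE libraries. It rose 5.12-fold in EPR (log2 fold change 2.36 ± 0.09, adjusted p = 1.2e-09) and 24.1-fold in EPRSTOPE (4.59 ± 0.09, adjusted p = 3.8e-12), and was lower in EPR than in EPRSTOPE by 4.71-fold (-2.24 ± 0.08, adjusted p = 2.2e-09). Mmp3 was near the limit of detection in mock, with 0.777, 1.06 and 0.488 CPM, and reached 18.5, 17.8 and 14.3 CPM in EPR and 102, 83.8 and 109 CPM in EPRSTOPE. The 21 mock counts of Mmp3 against 506 in EPR gave a 22.6-fold increase (95% exact interval 14.6 to 36.8, counting error only; adjusted p = 1.9e-08), and the 2340 counts in EPRSTOPE a 131-fold increase (85.6 to 212; adjusted p = 1.3e-10). Between the overexpressing conditions, Mmp3 was 5.84-fold lower in EPR (log2 fold change -2.55 ± 0.14, adjusted p = 1e-07). Mmp10 and Mmp3 are close copies: 11.9% of the sequence words of 31 bases in Mmp10 transcripts and 14.6% of those in Mmp3 transcripts occur in another gene's transcripts, chiefly the other one's, so part of their reads is divided between them by estimation.

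Mmp13, Mmp3 and Mmp10 lie on the forward strand in a cluster of 10 MMP genes on chromosome 9 (GRCm38), from base 7272514 to base 7699585, in the order Mmp13, Mmp12, Mmp1b, Mmp3, Mmp1a, Mmp10, Mmp8, Mmp27, Mmp20 and Mmp7. Only 4 of the 10 passed the filter. The fourth, Mmp12, a macrophage elastase that lies between Mmp13 and Mmp3 and is named here after its values were seen, had 0.95 to 2.36 CPM in mock cells, 2.71 to 3.4 with EPR and 2.03 to 4.07 with EPRSTOPE. In mock, all of its TPM lay on Mmp12-206, a model annotated as a retained intron (0.35, 0.193 and 0.393 TPM). Its coding models took none in mock, and none of them exceeded 0.669 TPM in a library of the overexpressing conditions. Mmp12 was not called in any comparison (log2 fold change 0.70 ± 0.39, adjusted p = 0.16, in EPR, and 0.60 ± 0.40, adjusted p = 0.24, in EPRSTOPE against mock). Of the 6 genes not tested, Mmp7, Mmp8 and Mmp20 had no count, Mmp1a had 1 and Mmp1b 5 counts over all libraries, and Mmp27 did not exceed 0.841 CPM. Tested genes outside the families around this cluster had median log2 fold changes between -0.14 and -0.26 in both comparisons with mock.

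**Figure D3:**
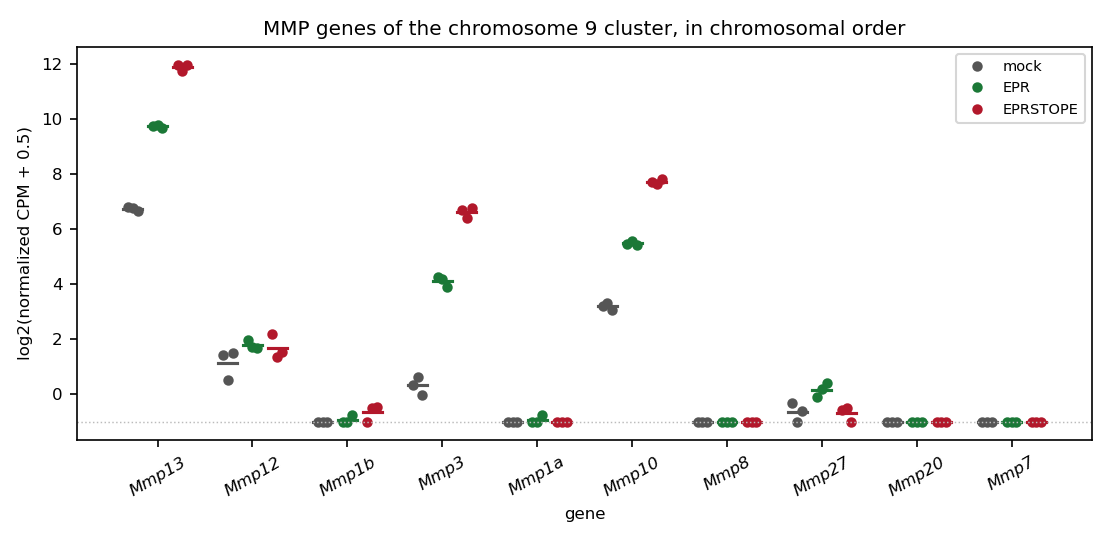
CPM of the 10 MMP genes of the chromosome 9 cluster, in chromosomal order, as log2(CPM + 0.5); points are libraries, short lines the mean of the 3 log values, and the dotted line marks 0 CPM. Mmp13, Mmp3 and Mmp10 step up from mock to EPR to EPRSTOPE, Mmp12 overlaps between EPRSTOPE and the other conditions, and 3 genes sit at 0 in every library.

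The bases just upstream of the annotated starts of these 4 genes are shown because 3 of these neighbours rose in both overexpressing conditions. They are given 5′ to 3′ from RefSeq (GRCm38.p6, forward strand), 120 bases ending right before the start, with 2 motifs in capitals. The first is TGAGTCA or its reverse complement TGACTCA, the element bound by AP-1. The second is TATAAA on the gene's strand, the letters of the TATA box, at any distance from the start. The Mmp12 sequence belongs to the second of its annotated starts, and the window of the first holds neither motif. The motifs were chosen after the values were seen.
Mmp13, chr9:7272394-7272513: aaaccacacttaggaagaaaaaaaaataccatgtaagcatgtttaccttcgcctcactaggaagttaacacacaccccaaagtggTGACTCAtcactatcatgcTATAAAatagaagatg
Mmp12, chr9:7347254-7347373: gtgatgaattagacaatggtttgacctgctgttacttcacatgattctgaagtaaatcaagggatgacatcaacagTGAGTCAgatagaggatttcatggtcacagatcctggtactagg
Mmp3, chr9:7445702-7445821: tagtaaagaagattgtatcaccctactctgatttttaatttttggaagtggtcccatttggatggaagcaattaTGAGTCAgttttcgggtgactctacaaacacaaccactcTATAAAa
Mmp10, chr9:7502222-7502341: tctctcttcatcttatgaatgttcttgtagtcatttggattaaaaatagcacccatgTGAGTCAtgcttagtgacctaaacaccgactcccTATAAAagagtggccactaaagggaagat

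The AP-1 element began at base -35 of Mmp13, -46 of Mmp3, -63 of Mmp10 and -44 of the second start of Mmp12, counted back from the start. The first 3 also held TATAAA downstream of it, beginning at base -16 of Mmp13, -7 of Mmp3 and -29 of Mmp10. A match was counted at any distance from the start, so it need not be a working TATA box. Within 250 bases upstream, TGAGTCA on either strand occurred in 4.46% of 32851 promoter windows of the mouse annotation, TATAAA on the gene's strand in 7.59%, and both in 0.481%. Of the 84 members, 53 had such a window, 58 windows in all, and 7 of these held both motifs: those of Mmp10, Mmp13, Mmp3, Mmp1a, Mmp1b, Mmp7 and Adam29. The last 4 of these genes were not expressed or nearly not expressed in these cells, with 0 to 5 counts over all libraries. Promoters that hold both motifs thus belonged to genes at the highest and at the lowest levels. A motif match describes the letters in the window and is no measurement of binding.

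Mmp14, a membrane-anchored collagenase that activates latent Mmp2, was the third most abundant MMP by mean TPM over all libraries, after Mmp13 and Mmp10. It had 68.2, 72.1 and 71.5 CPM in mock, 149.9, 148 and 144 in EPR, and 161, 158 and 158 in EPRSTOPE libraries. It rose 2.09-fold in EPR (log2 fold change 1.06 ± 0.05, adjusted p = 1.3e-08) and 2.25-fold in EPRSTOPE (1.17 ± 0.05, adjusted p = 4.9e-09) and did not differ detectably between them (-0.11 ± 0.05, adjusted p = 0.14). Mmp14 lies on chromosome 14 (54431612 to 54445364), where the medians of the 50 nearest tested genes were 0.88 in EPR and 0.74 in EPRSTOPE (log2, against mock), and those of the whole chromosome 0.5 and 0.64; the part of this regional rise in the Mmp14 values was not tested.

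The other membrane-type MMPs moved in different directions. Mmp15, another membrane collagenase and gelatinase, had 1.71, 2.32 and 1.38 CPM in mock, 18.3, 16.5 and 20.2 in EPR and 26.8, 27.3 and 26.3 in EPRSTOPE, a 10.2-fold and a 14.9-fold increase (log2 fold changes 3.36 ± 0.17 and 3.90 ± 0.17, adjusted p = 1.7e-08 and 3.7e-09). Its difference between EPR and EPRSTOPE was small (-0.54 ± 0.13, adjusted p = 0.0073) and lost its call when any single EPR or EPRSTOPE library was left out. Mmp16 went the opposite way: 8.08, 7.91 and 6.92 CPM in mock, 0.524, 0.379 and 0.654 in EPR and 0.508, 0.427 and 0.23 in EPRSTOPE. With 16 counts left in EPR and 9 in EPRSTOPE against 212 in mock, it fell 14.1-fold (95% interval 8.5 to 25.2; adjusted p = 1.2e-06) and 20-fold (10.3 to 44.4; adjusted p = 9e-07). Mmp24, which is best known from the nervous system, rose in EPR from 0.992 ± 0.356 to 5.5 ± 0.897 CPM, 5.99-fold by counts (95% interval 3.94 to 9.43; adjusted p = 0.00017), and had 1.99 ± 0.839 CPM in EPRSTOPE (adjusted p = 0.065 against mock). Its call between EPR and EPRSTOPE (log2 fold change 1.5 ± 0.36, adjusted p = 0.0074) was lost without any 1 of 6 libraries (adjusted p = 0.011 to 0.035). Of its exon bases, 13.6% overlap BC029722 on the other strand. That gene was above Mmp24 in each condition, with 19.9, 23.2 and 17.6 CPM in mock, EPR and EPRSTOPE, and the part of the overlap in the Mmp24 values was not tested. Mmp17, an MMP with a lipid anchor, stayed at or under 2.52 CPM, and its call in EPRSTOPE against mock (-1.5 ± 0.41, adjusted p = 0.0094) was lost with DESeq2 (adjusted p = 0.022) and without any 1 of 7 libraries.

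Mmp28, or epilysin, an MMP expressed in skin and other epithelia, was the member whose calls against mock had opposite signs in the overexpressing conditions. Mock libraries had 19.6, 19.8 and 16.3 CPM, EPR libraries 7.86, 6.06 and 7.29, and EPRSTOPE libraries 22.2, 33.5 and 28.8, with no overlap between conditions. Mmp28 fell 2.59-fold in EPR (log2 fold change -1.37 ± 0.17, adjusted p = 3e-05), rose 1.53-fold in EPRSTOPE (0.62 ± 0.15, adjusted p = 0.0056), and was 3.98-fold lower in EPR than in EPRSTOPE (-1.99 ± 0.17, adjusted p = 3.5e-06). The rise in EPRSTOPE was no longer called when any 1 of 5 libraries was left out (mock 203, 204 or 205, EPRSTOPE 210 or 211; adjusted p = 0.011 to 0.033), while the fall in EPR and the difference between EPR and EPRSTOPE remained called in each of these fits. Mmp19, a secreted MMP of many tissues, rose from 10 counts in mock (0.345 ± 0.054 CPM) to 4.88 ± 1.34 CPM in EPR and 2.23 ± 0.714 CPM in EPRSTOPE (adjusted p = 1e-05 and 0.00037). Of its exon bases, 28.3% overlap other genes on the opposite strand, of which Tmem198b had 4.31, 5.89 and 8.12 CPM in mock, EPR and EPRSTOPE. Mmp11, the third stromelysin, named here after its values were seen, had 9.7 ± 1.22, 8.72 ± 2.34 and 10.5 ± 0.744 CPM and was not called.

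Over the whole family, 7 MMPs rose and 2 fell in EPR against mock, and likewise in EPRSTOPE against mock, out of 12 tested. Over all genes, 28.1% and 28.0% were called in either direction. The gelatinases Mmp2 and Mmp9, which degrade basement membrane collagen, did not pass the filter. Mmp2 had no count in the mock and EPR libraries, where 3 counts would be 0.244 to 0.466 CPM, and 0.847, 0.961 and 0.46 CPM in the EPRSTOPE libraries. Mmp9 did not exceed 0.621 CPM. The latent enzyme that Mmp14 is best known to activate was thus at or under 1 CPM in these cells.

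Of the inhibitors, Timp2 and Timp3 were the most abundant, and each had its own pattern. Timp3, which is bound to the matrix and also inhibits Adam17 and several ADAMTS enzymes, had 333, 317 and 300 CPM in mock, 364, 359 and 347 in EPR, and 1318, 1376 and 1302 in EPRSTOPE libraries. The EPRSTOPE libraries stood far above the other 6: Timp3 rose 4.20-fold in EPRSTOPE against mock (log2 fold change 2.07 ± 0.05, adjusted p = 3.8e-11), was not called in EPR (0.17 ± 0.05, adjusted p = 0.017), and was 3.74-fold lower in EPR than in EPRSTOPE (-1.90 ± 0.05, adjusted p = 6.5e-10). Its exon bases overlap Syn3 on the other strand over 21.3% of their length, and Syn3 averaged only 2.21, 4.03 and 6.7 CPM in the mock, EPR and EPRSTOPE libraries.

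Timp2, which both inhibits MMPs and takes part in the activation of latent Mmp2, had 311, 308 and 302 CPM in mock, 541, 483 and 469.7 in EPR and 547, 594 and 618 in EPRSTOPE. It rose 1.62-fold in EPR (log2 fold change 0.70 ± 0.07, adjusted p = 2.9e-06) and 1.91-fold in EPRSTOPE (0.93 ± 0.07, adjusted p = 2.1e-07), in a stretch of chromosome 11 where the 50 nearest genes had medians of 0.35 and 0.25. Timp1, an inhibitor of most secreted MMPs, had 36 ± 4.83 CPM in mock cells, 27.7 ± 2.17 with EPR and 41.7 ± 1.34 with EPRSTOPE. Timp1 was not called against mock (-0.38 ± 0.10 in EPR, where adjusted p = 0.0093 but the change was within 0.5, and 0.21 ± 0.10 in EPRSTOPE, adjusted p = 0.12), and was lower in EPR than in EPRSTOPE by 1.5-fold (-0.59 ± 0.10, adjusted p = 0.0011). Timp4 had 7 counts in all 9 libraries together and was not tested.

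Summed over the family, MMP transcripts amounted to 85.4 ± 3.88 TPM in mock, 383 ± 33.7 in EPR and 1517 ± 134 in EPRSTOPE libraries. Mmp13 alone made up 39.8% ± 3.1, 73.4% ± 1.06 and 83.6% ± 0.91 of these sums, and the MMPs without it still added up to 51.3 ± 1.05, 102 ± 4.88 and 248 ± 20.6 TPM. TIMP transcripts summed to 317 ± 15.6, 361 ± 42.7 and 648 ± 97 TPM, so that the ratio of MMP to TIMP transcripts was 0.27 ± 0.0116 in mock, 1.07 ± 0.0949 in EPR and 2.38 ± 0.445 in EPRSTOPE. These ratios compare RNA levels, not protein or activity. The share of TIMP transcripts contributed by Timp3 was 20.8% ± 0.706 in mock, 19.7% ± 1.76 in EPR and 43.4% ± 4.78 in EPRSTOPE. The Timp2 level by TPM leans on a transcript model of 718 bases, which took 143, 143 and 148 TPM in the mock libraries.

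**Figure D4:**
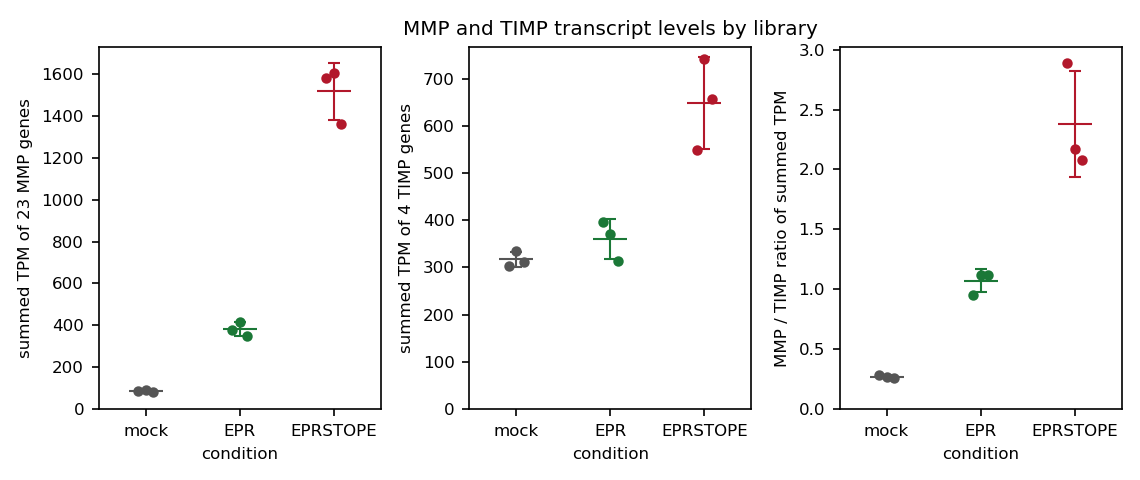
Summed TPM of the 23 MMP genes, summed TPM of the 4 TIMP genes and the ratio of the 2 sums, by condition; points are libraries and bars the mean ± SD of 3 libraries. The ratio lies at 0.261 to 0.283 in mock, 0.956 to 1.12 in EPR and 2.08 to 2.89 in EPRSTOPE libraries.

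Several ADAMTS genes differed widely between EPR and EPRSTOPE. Of 9 tested, 3 rose and 2 fell in EPR against mock, 2 rose and 5 fell in EPRSTOPE against mock, and EPR against EPRSTOPE gave 5 higher and 1 lower. Of all genes, 28.1%, 28.0% and 13.2% were called in either direction. Adamts15, Adamts9, Adamts1 and Adamts4 belong to the proteoglycanases, which cleave versican and aggrecan. Adamts15 had 0.621, 1.06 and 0.163 CPM in mock, 51.5, 49.9 and 47.9 in EPR, and 0.508, 1.92 and 0.805 in EPRSTOPE libraries. Only the EPR libraries were high: against the 16 counts in mock, Adamts15 rose 87.8-fold in EPR (95% interval 53.9 to 154; adjusted p = 2e-08), was not called in EPRSTOPE (adjusted p = 0.17), and was 42.6-fold higher in EPR than in EPRSTOPE (29.4 to 64.4; adjusted p = 1.5e-07).

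Adamts9 behaved alike, with 0.155, 0.317 and 0.326 CPM in mock, 15.9, 15.2 and 15.4 in EPR, and 0.169, 0.214 and 0.46 in EPRSTOPE libraries. There were 8 counts in mock, 467 in EPR and 7 in EPRSTOPE, an increase in EPR of 54.7-fold over mock (95% interval 27.5 to 128; adjusted p = 1.7e-08) and 53.1-fold over EPRSTOPE (25.6 to 133; adjusted p = 8.8e-08). EPRSTOPE and mock did not differ detectably (ratio 1.03, 95% interval 0.318 to 3.25; adjusted p = 0.97). Adamts9 shares 12.0% of its exon bases with genes on the other strand, which had at most 0.218 CPM on average in any condition.

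Adamts1 was the reverse of these 2 relatives. It had 31.7, 32.3 and 29.4 CPM in mock, 0.349, 0.253 and 0.748 in EPR, and 0.508, 1.17 and 2.19 in EPRSTOPE. With 14 counts in EPR against 871 in mock, it fell 66.4-fold (95% interval 39.3 to 122; adjusted p = 3.4e-08), and it fell 22.6-fold in EPRSTOPE (log2 fold change -4.50 ± 0.30, adjusted p = 1.2e-07). The lower level in EPR than in EPRSTOPE missed the threshold (ratio 2.96, 95% interval 1.54 to 5.99; adjusted p = 0.034) but passed it with DESeq2 (adjusted p = 0.0088), with no filter on low counts (0.004) and without the EPRSTOPE library 209 (0.0087). The proteoglycanases as a list thus held genes that were high only in mock, genes that were high only in EPR, and Adamts4, named here after its values were seen, which rose in EPRSTOPE from 1.03 ± 0.513 to 3.71 ± 0.598 CPM (adjusted p = 0.0096). The call of Adamts4 was lost without mock library 203 or 205 or any EPRSTOPE library (adjusted p = 0.015 to 0.048).

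Adamts10 and Adamts6, a pair of related enzymes associated with fibrillin microfibrils, were both lower in EPRSTOPE. Adamts10 had 12.3, 11.3 and 11.6 CPM in mock and 13.7, 16.5 and 11.9 in EPR, and no count in any EPRSTOPE library, in any of its transcript models. Mock and EPR overlapped (log2 fold change 0.26 ± 0.17, adjusted p = 0.25). Set against 3 counts in the shallowest EPRSTOPE library (0.508 CPM), the level in EPRSTOPE was at least 23.1-fold lower than in mock (adjusted p = 8.6e-08) and at least 27.6-fold lower than in EPR (adjusted p = 2.4e-07). For the 50 genes nearest to Adamts10 on chromosome 17, the median change in EPRSTOPE against mock was -0.02 (log2). The only Adamts10 model annotated as protein-coding took no TPM in any mock library, and 0.0917 TPM in EPR library 207 alone. The Adamts10 level in mock, and nearly all of it in EPR, thus lay on models not annotated as protein-coding. Adamts6 had 27.8, 29 and 25.6 CPM in mock, 22, 20.7 and 20.9 in EPR and 12.7, 10 and 12.2 in EPRSTOPE, without overlap. It fell 2.37-fold in EPRSTOPE (-1.24 ± 0.11, adjusted p = 2e-06), was not called in EPR (-0.37 ± 0.10, adjusted p = 0.011), and was 1.83-fold higher in EPR than in EPRSTOPE (0.87 ± 0.11, adjusted p = 0.00012).

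The procollagen N-proteinases Adamts14 and Adamts3, which trim the amino-terminal propeptide of fibrillar procollagens, also had no count in EPRSTOPE. Adamts14 had 5.44, 5.28 and 4.48 CPM in mock and 1.05, 0.505 and 0.841 in EPR. It fell 5.97-fold in EPR (95% interval 3.88 to 9.54; adjusted p = 0.00022), at least 9.96-fold in EPRSTOPE (adjusted p = 6.2e-06), and was at least 1.57-fold lower in EPRSTOPE than in EPR (adjusted p = 0.0011). Adamts3, named here after its values were seen, was low throughout, with 1.71, 1.16 and 1.22 CPM in mock and at most 0.505 in EPR, and fell at least 2.68-fold in EPRSTOPE (adjusted p = 0.0021). Adamts2, the third of this group, did not exceed 1.09 CPM in a library and was not tested.

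Adamts7, which cleaves the cartilage protein COMP, rose in steps. It had 1.86, 2.22 and 1.79 CPM in mock, 5.76, 4.8 and 6.92 in EPR, and 11, 11.5 and 11.5 in EPRSTOPE libraries, with log2 fold changes of 1.58 ± 0.21 in EPR (adjusted p = 6.7e-05), 2.53 ± 0.21 in EPRSTOPE (adjusted p = 9.4e-07) and -0.95 ± 0.18 between them (adjusted p = 0.0021; 0.01 without EPR library 206 or 207, where it was no longer called). Adamtsl5, an ADAMTS-like protein that binds fibrillin, had a similar order, with 1.24, 0.844 and 0.488 CPM in mock, 4.01, 5.43 and 5.51 in EPR and 14.7, 13.2 and 13.8 in EPRSTOPE. It rose 6.31-fold in EPR (95% interval 4.01 to 10.4; adjusted p = 1.6e-05) and 17.7-fold in EPRSTOPE (11.5 to 28.6; adjusted p = 1.9e-07), and was 2.80-fold lower in EPR than in EPRSTOPE (log2 fold change -1.48 ± 0.22, adjusted p = 0.00034). The other 2 tested ADAMTSL genes, Adamtsl3 and Adamtsl4, did not exceed 10.9 CPM in a library and were not called.

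**Figure D5:**
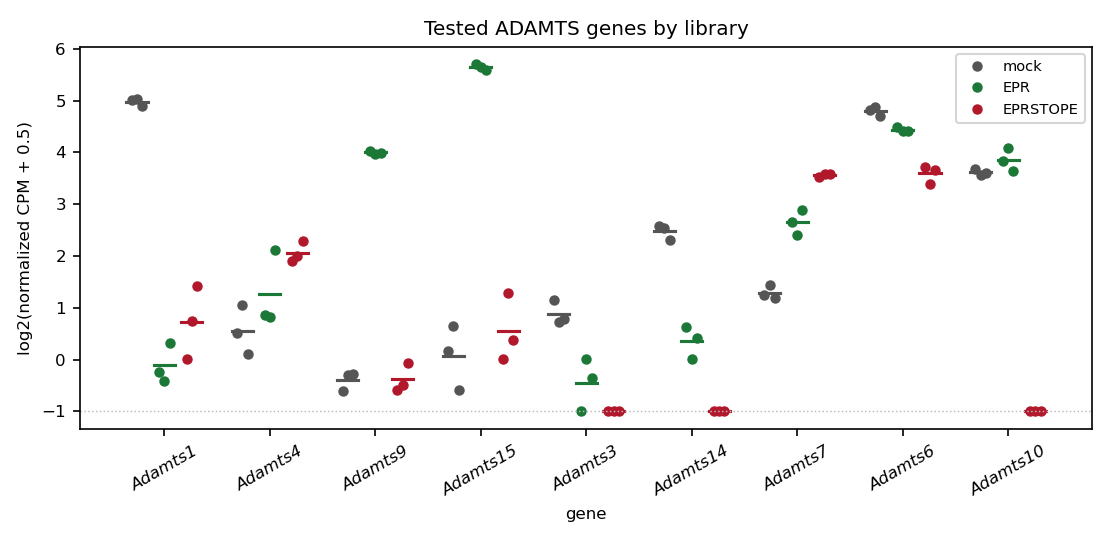
CPM of the 9 tested ADAMTS genes by library, as log2(CPM + 0.5); points are libraries, short lines the mean of the 3 log values, and the dotted line marks 0 CPM. Adamts1 is high only in mock (29.4 to 32.3 CPM), Adamts9 and Adamts15 only in EPR (15.2 to 15.9 and 47.9 to 51.5 CPM), and Adamts3, Adamts14 and Adamts10 lie at 0 in the EPRSTOPE libraries.

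Among the ADAMs, 4 of 11 tested rose and 2 fell in EPR against mock, 5 rose and 2 fell in EPRSTOPE against mock, and EPR against EPRSTOPE gave 2 higher and 1 lower. Over all genes, 15.2% rose and 12.9% fell, 15.6% rose and 12.4% fell, and 6.86% were higher and 6.35% lower in these comparisons. Adam10, the main sheddase of Notch receptors and E-cadherin, had 101, 94.8 and 96 CPM in mock, 167, 154 and 176 in EPR and 148, 157 and 154 in EPRSTOPE. It rose 1.71-fold in EPR (log2 fold change 0.77 ± 0.06, adjusted p = 9.4e-07) and 1.58-fold in EPRSTOPE (0.66 ± 0.06, adjusted p = 3.7e-06).

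Adam9, a further sheddase, rose 1.42-fold in EPR (from 186 ± 10.7 to 264 ± 7.66 CPM, log2 fold change 0.50 ± 0.06, adjusted p = 2.3e-05), at the border of the fold limit, and 1.57-fold in EPRSTOPE (to 292 ± 11.4 CPM, 0.65 ± 0.06, adjusted p = 2.6e-06). Without mock library 205 or EPR library 208, the change of Adam9 in EPR was at or under the fold limit. With counts scaled from TPM and length it was 0.16 in EPR and 0.45 in EPRSTOPE, neither of them called. By TPM, Adam9 had 74.7 ± 14.1 in mock, 72.4 ± 4.07 in EPR and 90.5 ± 17 in EPRSTOPE. Adam17, which releases tumour necrosis factor and ligands of the EGF receptor, had 79.8 ± 7.24 CPM in mock cells, 109 ± 10.6 with EPR and 123 ± 6.76 with EPRSTOPE. The change of Adam17 was past the fold limit in EPRSTOPE (0.62 ± 0.09, adjusted p = 8.4e-05) and under it in EPR (0.45 ± 0.09, adjusted p = 0.0009; 0.51 and 0.52, and then called, without mock library 204 or EPR library 207), and the 2 conditions did not differ detectably (-0.17 ± 0.09, adjusted p = 0.17). Adam15, another membrane protease, named here after its values were seen, rose by 0.76 ± 0.07 in EPR (adjusted p = 1.5e-06) and 0.81 ± 0.07 in EPRSTOPE (adjusted p = 8.7e-07) on the log2 scale. A gene on the other strand overlaps 20.6% of its exon bases. The 4 tested ADAMs that were not called in any comparison, Adam1a, Adam4, Adam22 and Adam28, did not exceed 5.44 CPM in a library.

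Adam8, a protease of leukocytes and tumour cells, was highest in EPR. It had 7.46, 5.8 and 5.94 CPM in mock, 27.6, 31.6 and 28 in EPR, and 13, 11 and 14.3 in EPRSTOPE, with no overlap between conditions. Its log2 fold change was 2.20 ± 0.14 in EPR (adjusted p = 1.1e-07), 1.01 ± 0.15 in EPRSTOPE (adjusted p = 0.00012) and 1.19 ± 0.13 in EPR against EPRSTOPE (adjusted p = 3.4e-05). The sum of the immune markers was also higher in both overexpressing conditions than in mock, as given above, with S100a8 called higher in each (log2 fold changes 4.44 and 4.68). Ptprc averaged 0.47, 0.578 and 0.223 CPM in mock, EPR and EPRSTOPE. The part of these markers in the Adam8 values was not tested.

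Adam23, an ADAM without protease activity that acts in cell adhesion, had 67.1, 64.1 and 64.5 CPM in mock, 1.83, 1.77 and 1.5 in EPR and 0.339, 0.32 and 0.115 in EPRSTOPE. By TPM it stood at 34.2 ± 10.4 in mock, within the spread of Adam17 and Adam10. Part of this level lay on short models not annotated as protein-coding. A model of 740 bases, Adam23-212, took 16.5, 3.61 and 7.33 TPM in the mock libraries, and the coding model Adam23-204 took 6.13, 10.7 and 6.93. Short models also took part of the TPM of Adam17 and Adam10. Adam23 fell 38.1-fold in EPR (log2 fold change -5.25 ± 0.13, adjusted p = 3.9e-11). Only 6 counts remained in EPRSTOPE, a 259-fold decrease with a 95% interval of 119 to 708 (adjusted p = 1.7e-11), and EPR was above EPRSTOPE by 6.77-fold (2.91 to 19.3; adjusted p = 4.2e-05). Adam12, a protease often raised in mesenchymal cells, had 73.4 to 74.7 CPM in mock cells, 0.379 to 1.31 with EPR and 4.57 to 8.17 with EPRSTOPE, so that the order of the overexpressing conditions was opposite for these 2 genes. The difference of Adam12 between EPR and EPRSTOPE, 24 against 147 counts, amounted to 7.69-fold (4.97 to 12.4; adjusted p = 3.2e-05).

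By level, the order of the members changed with the condition. In mock, Timp2 led with 196 ± 4.22 TPM, followed by Adam9 (74.7 ± 14.1) and Timp3 (66.1 ± 5.51), which did not differ beyond their spread, and Timp1 (54.6 ± 5.91). In EPR, Mmp13 (281 ± 28.8 TPM) and Timp2 (254 ± 36.5) were within each other's spread, as were Adam9 (72.4 ± 4.07) and Timp3 (70.6 ± 3.31) after them. In EPRSTOPE, Mmp13 stood alone at 1269.6 ± 118 TPM, followed by Timp2 (310.1 ± 67) and Timp3 (279.7 ± 33.8), not apart beyond their spread, and Mmp10 (115 ± 10.6). All members together took 0.161% ± 0.00876 of the counts in mock, 0.272% ± 0.00151 in EPR and 0.674% ± 0.0313 in EPRSTOPE.

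Genes that process, hold back or are cut by these proteases were followed as a list of 33, of which 24 were tested. In EPR against mock, 8 rose and 2 fell; in EPRSTOPE against mock, 10 rose and 2 fell; and in EPR against EPRSTOPE, 3 were higher and 3 lower. The shares over all genes were 15.2% and 12.9%, 15.6% and 12.4%, and 6.86% and 6.35%. Pcsk6, a convertase that cleaves latent precursors, had 2.33, 2.43 and 3.5 CPM in the mock libraries, 55.7, 53.7 and 59.2 in EPR and 54.4, 51.3 and 54.3 in EPRSTOPE (increases with log2 fold changes 4.30 ± 0.13 and 4.22 ± 0.13, adjusted p = 1.5e-10 for each). The convertases Furin and Pcsk7, named here after their values were seen, were not called in any comparison. Furin averaged 118, 117 and 146 CPM in mock, EPR and EPRSTOPE, and Pcsk7 34.5, 42.9 and 42.8. Of the plasmin system, whose protease activates several latent MMPs, the activator Plat rose from 23 ± 2.11 to 265 ± 4.95 CPM in EPR and 341 ± 39.1 CPM in EPRSTOPE (3.51 ± 0.10, adjusted p = 6.7e-11, and 3.88 ± 0.10, adjusted p = 2.9e-11). Its inhibitor Serpine2 rose from 29 counts in mock by 127-fold in EPR (95% interval 88.3 to 189.9; adjusted p = 3.2e-11) and 135-fold in EPRSTOPE (94 to 202; adjusted p = 2.2e-11). Activator and inhibitor thus rose together.

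Plau, the urokinase-type activator, had 29.5, 30 and 28.7 CPM in mock, 34.3, 32.1 and 30 in EPR, and 106, 109 and 122 in EPRSTOPE. It was high in EPRSTOPE alone (log2 fold change 1.93 ± 0.08, adjusted p = 1.7e-09, against mock, and -1.80 ± 0.08, adjusted p = 1.6e-08, for EPR against EPRSTOPE), as Timp3 was. Lrp1, the receptor that takes up several MMPs, Timp3 and protease-inhibitor complexes, rose from 82.9 ± 5.53 to 269 ± 20.9 CPM in EPR and 458 ± 70.3 CPM in EPRSTOPE (1.70 ± 0.11, adjusted p = 1e-07, and 2.47 ± 0.11, adjusted p = 4e-09), and differed between them (-0.77 ± 0.10, adjusted p = 0.00015). Reck, a membrane inhibitor of MMPs, did not exceed 1.52 CPM and was not called in any comparison (adjusted p = 0.12, 0.59 and 0.38).

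Rhbdf2, which escorts Adam17 to the cell surface, rose from 13.6 ± 2.45 CPM in mock cells to 73.6 ± 6.5 with EPR and to 35.9 ± 1.76 with EPRSTOPE (log2 fold changes 2.44 ± 0.12, adjusted p = 1.3e-08, and 1.40 ± 0.12, adjusted p = 1.7e-06), and was higher in EPR than in EPRSTOPE (1.03 ± 0.11, adjusted p = 3e-05). Frmd8, which stabilises the complex of Rhbdf2 with Adam17, had 59.1 ± 3.04 CPM in EPR and 33.8 ± 2.2 CPM in EPRSTOPE (0.80 ± 0.09, adjusted p = 4.8e-05), and was not called against mock, where it had 44 ± 4.92 CPM. Rhbdf1, the remaining ADAM17 partner on the list, is named here after its values were seen. It had 69.2 ± 3.28 CPM in EPR and 77.6 ± 4.55 CPM in EPRSTOPE and was not called between them (-0.17 ± 0.08, adjusted p = 0.13). Adam17 itself was not called in EPR against EPRSTOPE either.

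Among matrix substrates, the ADAMTS substrates Vcan (versican) and Acan (aggrecan) fell against mock. Vcan had 133, 129 and 131 CPM in mock, 2.71, 2.65 and 2.15 in EPR and 1.52, 2.67 and 2.42 in EPRSTOPE (log2 fold changes -5.71 ± 0.12, adjusted p = 1.1e-11, and -5.84 ± 0.13, adjusted p = 1.2e-11). Acan had 4.74 ± 1.22 CPM in mock and 1.27 ± 0.558 CPM in EPR (-1.85 ± 0.42, adjusted p = 0.0031) and a single count in EPRSTOPE, a 109-fold decrease with a counting interval of 19.2 to 4328 (adjusted p = 1.3e-05). Fbn1, the microfibril protein fibrillin, had 0.244 to 2.95 CPM in mock cells, 1.4 to 2.9 with EPR and 55.5 to 59.8 with EPRSTOPE. Fbn1 rose in EPRSTOPE against mock (5.60 ± 0.39, adjusted p = 1.9e-07) and was lower in EPR than in EPRSTOPE (-4.85 ± 0.35, adjusted p = 1.1e-06), the opposite of Adamts10, which was without counts in EPRSTOPE.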

How the data were processed

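Total RNA of NMuMG cells was sequenced by the authors as stranded paired-end libraries, 3 per condition. The authors quantified reads with kallisto 0.43.1 against Gencode transcripts of GRCm38, and deposited estimated counts and TPM per transcript. Whether kallisto used the strand is not given in the sources used here. For this report, the deposited estimated counts and TPM were summed per gene symbol, and the counts were rounded. Genes reaching 1 CPM in 3 or more libraries entered edgeR 4.0.16 (quasi-likelihood test, TMM normalisation, all 9 libraries in 1 model, R 4.3.3), with Benjamini-Hochberg adjustment over 15370 genes. Standard errors were the log2 fold change divided by the square root of F. Where a condition held under 30 counts, the ratio of summed counts is given with an exact 95% binomial interval, which covers counting error only. Where it held none, a bound was set at 3 counts in its shallowest library, and 3 counts equalled 0.244 to 0.508 CPM.

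Named members were every TIMP, the 8 called increases and decreases of largest size per comparison with at least 2 CPM, the 8 members highest in TPM, and Adam10, Adam12, Adam17, Mmp2, Mmp9 and Mmp14; of the 33 other genes, the 3 called of largest change each way, with Reck and Rhbdf2. The members and lists were chosen with earlier results of these data known. Replicate libraries differed by more than sampling noise (chi-square per degree of freedom 5.108 to 10.913). On simulated counts for EPR against mock (14471 genes, 200 changed by 1.5 on the log2 scale), edgeR recovered 199 of 200 with 1 false call. The changed genes were drawn only from those above a minimum expected count, so this recovery does not cover members with few counts. Alternatives were DESeq2 1.42.0, limma-voom 3.58.1, other size factors, filters, thresholds, counts scaled from TPM and length, a fit of 6 libraries, and leaving out each library. Overlaps and positions came from Gencode annotation of GRCm38, and promoters from RefSeq.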

Additional observations from a re-analysis of the deposited data

Results flagged for a closer look

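Mmp28 moved in opposite directions in the overexpressing conditions, and the difference between them passed the test: its log2 fold change in EPR against EPRSTOPE was -1.99 (adjusted p = 3.5e-06, edgeR), with all 3 EPR libraries under and all 3 EPRSTOPE libraries above the mock libraries. Of its exon bases, 12.0% overlap 1700020L24Rik on the other strand, which had 2.24, 1.29 and 2.31 CPM in mock, EPR and EPRSTOPE, and the part of that overlap in the result was not tested.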

How the results depend on the processing

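No paired analysis was possible because the library numbers, 203 to 211, are not shared between conditions. No fold change reversed. DESeq2, limma-voom, other size factors, no filter and the fit of the 6 libraries compared moved no count of called genes by over 1.5 times. A filter of 10 counts in every library removes genes near 0 in 1 condition by construction: it left 10 members higher and 1 lower in EPR against mock, 1 lower in EPRSTOPE against mock and 2 higher in EPR against EPRSTOPE, and 0 of the list of 33 lower in either comparison with mock. At an adjusted p under 0.05 with no fold limit, 10 members were lower in EPR against mock, and of the list of 33, 16 were higher in EPRSTOPE against mock and 8 lower in EPR against EPRSTOPE. With counts scaled from TPM and length, EPR against EPRSTOPE gave 5 members higher and 6 lower, without Adam8, Adamts6, Mmp24, Adamts7, Adamtsl5, Mmp15 and Timp1, and 1 gene of the list of 33 higher; there Adam9, Adam15, Timp2, Adamts7 and Adamtsl5 in EPR, and Adam9, Adam15, Adam17, Adamts4, Mmp17 and Mmp28 in EPRSTOPE, lost their calls against mock too; the cause was not tested.

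With each library left out in turn, members higher and lower numbered 14 to 18 and 5 to 6 in EPR against mock, 15 to 17 and 6 to 9 in EPRSTOPE against mock, and 6 to 8 and 8 to 10 in EPR against EPRSTOPE. For the list of 33, the ranges were 8 to 8 and 1 to 2 (1 without mock library 204 or EPR library 207), 9 to 11 and 2 to 2, and 3 to 3 and 3 to 4. Mmp17 in EPRSTOPE against mock lost its call without any 1 of 7 libraries (mock 203, 204 or 205, EPR 207 or 208, EPRSTOPE 210 or 211; log2 fold change -1.54 to -1.24), with DESeq2, with no filter and in the fit of 6 libraries. For Mmp24 in EPR against EPRSTOPE, the 6 libraries were mock 204, EPR 206, 207 or 208, and EPRSTOPE 210 or 211 (1.18 to 1.63). Depth limits genes under 1 CPM, for which 3 counts in a library are 0.244 to 0.508 CPM.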
